A study of Homo sapiens with 12 samples.

Results

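Heteronemin and tetrac, each given alone, were set side by side in HCT-116 cells, a long-established line grown from a human colorectal carcinoma. The groups were heteronemin alone and tetrac alone, with 3 samples each, out of 12 samples in 4 groups; control, for which the labels name no vehicle, and the combination are given for reference. Treatment lasted 24 h, and 770 genes of a tumour progression panel were measured by NanoString nCounter, which counts fluorescent barcodes on probes bound to transcripts. The labels name no dose for either compound, so it is not known whether the doses were matched. They also do not say whether replicates were separate cultures. The values are the authors' group means of normalized counts, so no SD can be given and no test of heteronemin against tetrac can be made. A ratio here is the heteronemin mean over the tetrac mean. Of the 770 genes, 363 had a mean over both columns of 100 or more, and these genes of adequate level lead the account. A fold of 1.5 or more, a log2 ratio of 0.585 or beyond, is counted as a description, without a test.

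Heteronemin is a sesterterpenoid made by marine sponges that is toxic to many tumour cell lines. Tetrac, tetraiodothyroacetic acid, is a deaminated thyroxine analogue that binds integrin alphavbeta3 at the cell surface and blocks thyroid hormone there. The compounds share no scaffold: one is a terpenoid and the other an iodinated diphenyl ether acid. The series' title concerns signalling through the EGF receptor, a receptor tyrosine kinase whose main arms run through RAS and ERK, through PI3K and AKT, and through STAT3. In the colon epithelium, BMP and Notch signals set the balance of renewal and differentiation, with ID proteins as BMP targets. AP-1, built from JUN and FOS proteins, is a common end point of ERK and stress kinases, and CXCL8 is among its targets.

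At a fold of 1.5 or more, 22 of the 363 genes (6.06%) were higher after heteronemin and 12 (3.31%) were higher after tetrac. The genes higher after heteronemin were led by interleukin-8 (CXCL8), JUN, the laminin chain LAMB3, the transcription repressor SNAI1 and the haem oxygenase HMOX1. Those higher after tetrac were led by the sodium channel subunit SCNN1A, the growth factor BMP4, its target ID2 and the Notch ligand JAG1. The 22 genes lay at mean levels from 102.8 to 1428, with a median of 183.3, and the 12 genes from 199.3 to 2683, with a median of 511. Of the 22 genes, 9 had a tetrac mean under 100 and reached the level minimum through the heteronemin column. Among these were CXCL8, LAMB3, HMOX1, NRP1, CKMT1A, COL1A1, ADM2 and EGLN3. Of the 12 genes, 0 had a heteronemin mean under 100. At a level minimum of 200 the balance turned round, with 8 genes higher after heteronemin and 11 higher after tetrac. A fold of 2 or more was reached by 7 genes in the first direction and 4 in the second. Among all 363 genes, 139 had a ratio above 1 and 224 below, with a median log2 ratio of -0.08. The middle 90% of them lay between log2 ratios of -0.48 and 0.65.

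Over all 770 genes, 112 (14.5%) were past the fold after heteronemin and 13 (1.69%) after tetrac.

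**Figure D1:**
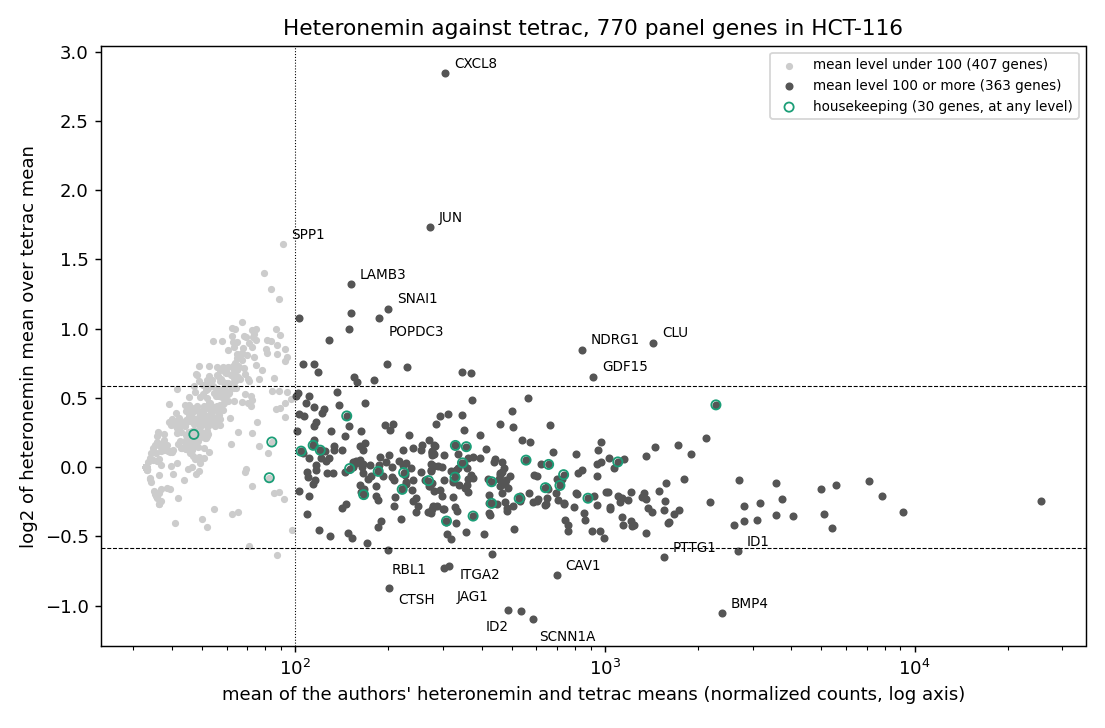
Log2 ratio of the authors' heteronemin mean over the tetrac mean for each of 770 genes, against the mean of both (log axis). Dashed lines mark a fold of 1.5 and the dotted line a mean level of 100; green rings are the 30 housekeeping genes, which span -0.39 to 0.45, while CXCL8 stands at 2.85 and SCNN1A at -1.10.

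The 30 housekeeping genes give a yardstick from the same columns: their log2 ratios ran from -0.39 (SAP130) to 0.45 (FCF1), with a median of -0.03. Of 336 other genes of adequate level, 30 lay above that range and 40 below it. Rescaling both columns to equal panel sums, which were 280484 after heteronemin and 306898 after tetrac, added 0.13 to every log2 ratio, and centring on the median of the 363 genes added 0.08. Since both shifts are upward, neither could take a gene out of the 22; the count higher after heteronemin became 30 with equal panel sums and 27 with the centring, and 8 of the 12 genes higher after tetrac stayed past the fold under both. A list median between -0.13 and 0 changes sign under equal panel sums.

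Genes of low level were kept apart from the rest. The lowest value in any column was 33, and 279 genes were at that floor in control, against 70 after heteronemin and 61 after tetrac. After tetrac 223 of those 279 genes had a mean above the floor, and for 212 of them p is printed as 0.42 in the authors' deposited table. Welch's test returns 0.4226 by arithmetic whenever a single value lies above a floor that all others of both groups share, however high it lies. Of the 213 such genes after heteronemin, 135 carried a p from 0.18 to 0.22 in the authors' deposited table, and 10 a p of 0.42. With 2 values of a group equally above the floor, Welch's test returns 0.1835. The authors' test is not stated and sample values were not analysed here, so how many samples stood above the floor was not tested. Among the 407 genes under a mean level of 100, the median log2 ratio was 0.32, with 90 genes at 1.5-fold or more higher after heteronemin and 1 higher after tetrac. None of the 363 genes of adequate level was at the floor in control, heteronemin or tetrac.

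**Figure D2:**
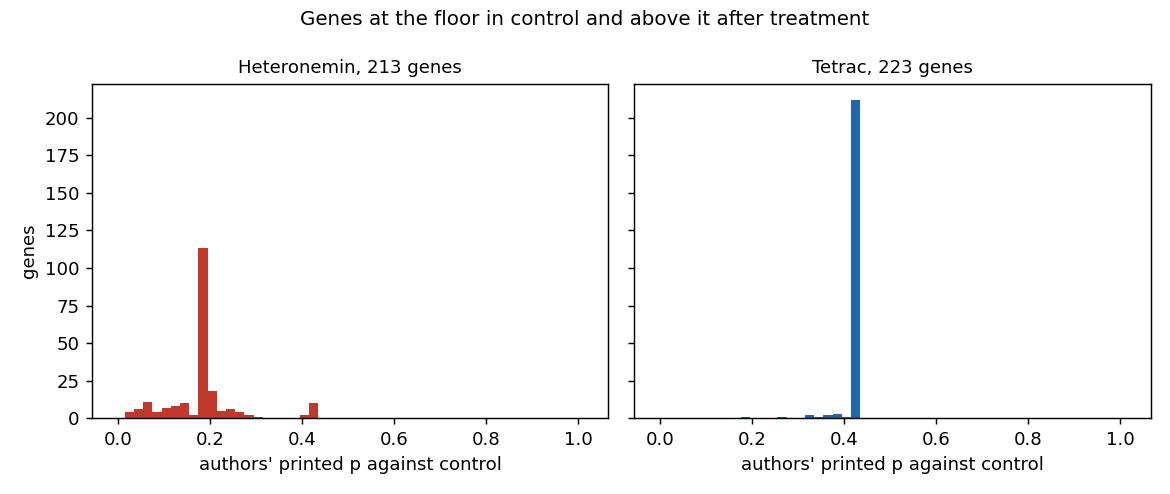
Authors' printed p against control (x axis) for genes whose control mean was the floor of 33 and whose treated mean was higher, after heteronemin (213 genes, left) or tetrac (223 genes, right); bars count genes. The tetrac bar at 0.42 holds 212 genes, while the heteronemin genes pile up near 0.18 to 0.22.

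Of 12 markers listed for colon carcinoma epithelium, 7 were measured, and 6 of them were far above the floor in all groups; EPCAM, the epithelial adhesion molecule, stood at 1402 after heteronemin and 1581 after tetrac. CEACAM5 was at the floor in control and at 50.3 and 45.3 after the compounds. The 8 endothelial markers summed to 408.4 after heteronemin and 333.4 after tetrac, where 8 values at the floor sum to 264, and none passed 84.7. The 10 fibroblast and smooth muscle markers summed to 528 and 399.8, none above 73.7. Of 5 leukocyte markers, PRF1 alone was clear of the floor, at 163.7 after heteronemin, 214.4 after tetrac and 200.7 in control. Apart from PRF1 these other-cell markers lay near the floor, and their part in the results was not tested.

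CXCL8 encodes interleukin-8, a neutrophil attractant. Its mean was 535 after heteronemin and 74.4 after tetrac, 7.19-fold apart, with 65.5 in control and 892 under the combination. Tetrac alone thus lay close to control and the combination above heteronemin alone. In the authors' deposited table, the p against control was 0.33 for tetrac and printed as 0 for heteronemin, which stands for any p below 0.005. Both comparisons with control share the same control samples. Of the 18 inflammatory mediators measured, only CXCL8, NFKB1 and IL18 reached the level minimum; NFKB1 had a log2 ratio of -0.12 and IL18 of 0.16. JUN, a subunit of AP-1, had a mean of 419 after heteronemin, 126 after tetrac, 119 in control and 569 under the combination. Its ratio was 3.33, and in the authors' deposited table its p against control was printed as 0 for heteronemin and was 0.64 for tetrac. MYC, a driver of growth that the same list holds, had means of 1964 and 1843, a log2 ratio of 0.09.

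Promoters of genes past 1.5-fold were searched, since CXCL8 and JUN led and CXCL8 is an AP-1 target. RefSeq windows on GRCh38.p14, cut to the 250 bases before each listed start, were found for 13 of the 22 genes and 11 of the 12. TGANTCA, the AP-1 site read on both strands, was present for CXCL8 and LAMB3 among the 13 and for 0 of the 11. Of all 35116 windows 6.57% held it, and of 557 panel genes with a window 11.1% did. GGCGCC, a site bound by BMP SMADs, was present for 4 of the 13 and 4 of the 11, BMP4 included, against 25.3% of the panel genes. A loose form of the NF-kappaB site, GGGA and CC set 4 bases apart, was present for 7 of the 13 and 5 of the 11, against 35.7%. The antioxidant response element TGACNNNGC was present for 2 and 1, against 14.9%, and the E-box CACGTG for 2 and 1, against 10.4%. TGATGNAA, an ATF4 and CEBP composite, was present for 1 and 0, against 3.59%, and the cAMP response element TGACGTCA for 0 and 0, against 3.23%. A match describes letters in a window and is no evidence of binding. Only these spellings were searched, so a window without a match may still hold another form of a site.

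The windows of CXCL8 (chr4:73740319-73740568, plus strand), of a downstream start of LAMB3 (chr1:209651375-209651624, minus strand) and of the most upstream start of BMP4 (chr14:53955051-53955300, minus strand) are shown because they belong to leading genes and hold a match. The other 2 windows of LAMB3 held no TGANTCA, the other 2 of BMP4 held no GGCGCC, and the window of JUN held none of the motifs as spelled above. The JUN window does hold tgacatca, which neither TGANTCA nor TGACGTCA matches, so it is not shown to lack a site of that kind. Capitals mark matches to the motifs above, 5′ to 3′. The AP-1 match begins 137 bases before the start in CXCL8 and 67 in LAMB3. The second capital run in CXCL8 is a match to the loose NF-kappaB pattern, and the run in BMP4 is GGCGCC. The CXCL8 window also holds tggaatttcc, which that pattern does not match and which is left in lower case.
CXCL8: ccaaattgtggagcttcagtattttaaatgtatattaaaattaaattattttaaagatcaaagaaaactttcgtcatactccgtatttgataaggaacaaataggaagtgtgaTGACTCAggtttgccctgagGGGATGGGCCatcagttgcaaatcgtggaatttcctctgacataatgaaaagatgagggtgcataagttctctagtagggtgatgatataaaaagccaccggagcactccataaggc
LAMB3: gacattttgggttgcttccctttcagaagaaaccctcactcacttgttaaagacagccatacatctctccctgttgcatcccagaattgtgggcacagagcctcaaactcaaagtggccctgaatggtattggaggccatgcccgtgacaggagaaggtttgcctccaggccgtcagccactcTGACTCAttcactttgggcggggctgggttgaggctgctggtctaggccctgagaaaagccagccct
BMP4: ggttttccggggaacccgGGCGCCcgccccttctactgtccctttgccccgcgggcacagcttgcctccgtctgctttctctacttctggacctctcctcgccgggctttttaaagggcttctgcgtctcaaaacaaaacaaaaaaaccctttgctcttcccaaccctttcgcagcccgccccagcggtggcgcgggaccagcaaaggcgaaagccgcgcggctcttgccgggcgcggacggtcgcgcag

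LAMB3 and LAMA3, chains of laminin that anchor epithelium to its basement membrane, had higher means after heteronemin than after tetrac. LAMB3 had a mean of 215.5 after heteronemin, 86.2 after tetrac, 102 in control and 363 under the combination, so tetrac was below control and heteronemin above it. LAMA3, under the level minimum, had 116 and 57.7, which is 2-fold within rounding. Its log2 ratio was 0.36 once the median of genes of like level was taken off; the 36 genes at mean levels from 75 to under 100 had a median of 0.59 and 18 of them were past the fold. In the authors' deposited table, the p against control was 0.01 for LAMB3 and 0.01 for LAMA3 after heteronemin, and 0.44 and 0.40 after tetrac. Of 9 basement membrane genes of adequate level, 2 were past 1.5-fold, both higher after heteronemin, LAMB3 among them, against 6.06% of the 363 genes. LAMA5 and LAMC1, chains of other laminins, had log2 ratios of 0.10 and 0.11, and the fibulin FBLN1 had -0.51. The list's median was 0.03, against -0.08 over the 363 genes.

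**Figure D3:**
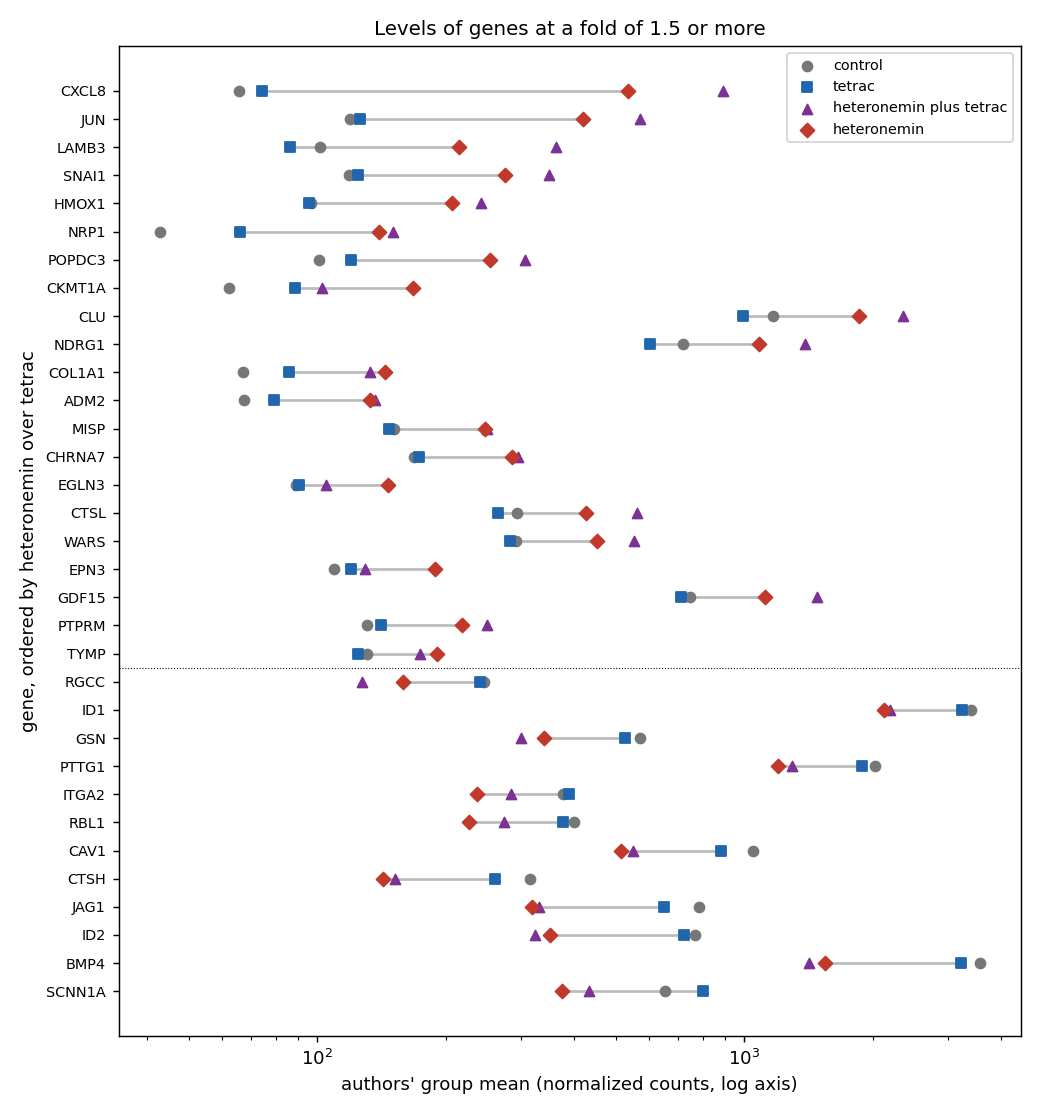
Authors' group means (log axis) in control, tetrac, heteronemin and the combination for all but 1 of the 34 genes at a fold of 1.5 or more between heteronemin and tetrac; grey bars join those groups, and the dotted line parts genes higher after heteronemin (above) from genes higher after tetrac. CXCL8 spans 74.4 to 535 between the compounds and BMP4 1550 to 3219.

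Of 27 listed genes of oxidative and integrated stress, 8 were measured, all of adequate level, and ATF4, DDIT3 and NQO1 were not among them. Of the 8, 3 were past 1.5-fold higher after heteronemin and 0 higher after tetrac, against 6.06% and 3.31% of the 363 genes. HMOX1, which degrades haem and is a classical target of NRF2, had a mean of 207 after heteronemin, 95.6 after tetrac and 96.6 in control. NDRG1, a stress and hypoxia response gene, had 1084 after heteronemin, 602 after tetrac and 721 in control, a ratio of 1.80. GDF15, a stress cytokine, had 1119, 712 and 748 in the same order. For heteronemin, the p against control in the authors' deposited table was 0.02 for HMOX1, 0.02 for NDRG1 and 0.06 for GDF15; for tetrac it was 0.95, 0.20 and 0.76. VEGFA, the vascular growth factor, had a log2 ratio of 0.50, just short of the fold. The antioxidant enzymes SOD1 and GPX1 had 0.01 and -0.15, and the chaperones HSPB1 and HSP90B1 had -0.09 and -0.06. The list's median was 0.26. WARS (WARS1), the tryptophanyl-tRNA synthetase, had 453 after heteronemin and 283 after tetrac, a ratio of 1.60.

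CLU encodes clusterin, a secreted chaperone. It was the most abundant of the 22 genes higher after heteronemin, with a mean of 1859 against 997 after tetrac, 1169 in control and 2352 under the combination. Its ratio was 1.86, and the authors' deposited table gives p = 0.03 for heteronemin and 0.17 for tetrac against control. CTSL, the lysosomal protease cathepsin L, had 427 against 265, a ratio of 1.61, while CTSH, cathepsin H, had 142.5 against 260, which is 1.83-fold higher after tetrac. CTSK, cathepsin K, had a log2 ratio of 0.51. The 14 proteases and inhibitors of adequate level thus had 1 gene past the fold each way, against 6.06% and 3.31% of the 363 genes. The list's median was 0.00. Others of the list were the urokinase receptor PLAUR at 0.42, the sheddase ADAM17 at 0.41, matriptase (ST14) at -0.46 and the inhibitor TIMP1 at -0.30.

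SNAI1, a zinc finger repressor of E-cadherin, had a mean of 275 after heteronemin, 124 after tetrac, 119 in control and 349 under the combination, a ratio of 2.21. Its p against control in the authors' deposited table was printed as 0 for heteronemin and was 0.78 for tetrac. E-cadherin itself, CDH1, had 374 after heteronemin and 475 after tetrac, a log2 ratio of -0.35. Of 22 junction and epithelial genes of adequate level, only SCNN1A was past the fold, higher after tetrac, against 3.31% of the 363 genes. Next in that direction were the surface glycoprotein CD24 at -0.52, ST14, and beta-catenin, CTNNB1, at -0.42; the claudins CLDN7, CLDN4 and CLDN3 had 0.12, 0.18 and 0.26. That list's median was -0.13. Of the 5 mesenchymal genes of adequate level, SNAI1 was past the fold, against 6.06% of the 363 genes. CD44, MET, PMP22 and LOXL2 had -0.31, -0.25, -0.12 and 0.26. VIM was near the floor in all groups, at 35.4 and 33 after the compounds.

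NRP1, a co-receptor for semaphorins and VEGF, had a mean of 139 after heteronemin, 66.1 after tetrac and 42.8 in control. Tetrac lay between control and heteronemin, and the ratio was 2.11. For heteronemin its p against control was printed as 0 in the authors' deposited table, and for tetrac it was 0.27. Of 13 angiogenic genes of adequate level it was the 1 past the fold, near the 6.06% of all 363 genes. Ratios above 1 were found for 10 of the 13, against 139 of the 363, and the median was 0.17, or 0.12 with the level correction. PDGFA, THBS1, FGF2 and ANG, all secreted factors at low levels, had log2 ratios of 0.52, 0.46, 0.39 and 0.38. COL1A1, the collagen I chain, had 144 after heteronemin, 86.0 after tetrac and 67.2 in control. It was the 1 of 6 collagen chains and collagen-modifying genes past the fold, against 6.06% of the 363 genes. ADM2, the peptide hormone adrenomedullin 2, had 133, 79.4 and 67.3. After the median of genes of like level was taken off, ADM2 lay at 0.42 and the HIF prolyl hydroxylase EGLN3, at 147 against 90.9, lay at 0.57, both below the fold. COL1A1 then lay at 0.59, just past it, and 20 of the 22 genes kept the fold. NRP1, COL1A1, ADM2 and EGLN3 had tetrac means under 100 and reached the level minimum only through the heteronemin column.

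The other genes past 1.5-fold higher after heteronemin were POPDC3, a Popeye domain protein (253 against 120), the spindle protein MISP (247 against 148), the epsin EPN3 (189 against 120), the receptor phosphatase PTPRM (219 against 141) and thymidine phosphorylase, TYMP (191 against 125). CKMT1A (168 against 88.7) and CHRNA7 (285 against 173) have near-identical copies in the genome, CKMT1B and CHRFAM7A, so their identity is uncertain. Of these 7 genes, EPN3 had p = 0.07 for heteronemin against control in the authors' deposited table, and the other 6 were under 0.05. Just outside the fold were PTK2B and EGFL7, at 0.55 and 0.54, and just inside were TYMP and PTPRM, at 0.61 and 0.63.

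SCNN1A, a subunit of the epithelial sodium channel, differed most in the other direction. Its mean was 374 after heteronemin, 800 after tetrac, 653 in control and 433 under the combination, so control lay between the compounds. It was 2.14-fold higher after tetrac, and in the authors' deposited table its p against control was printed as 0 for heteronemin and as 0.05 for tetrac. BMP4, a secreted ligand of BMP receptors, had 1550 after heteronemin, 3219 after tetrac and 3561 in control. It was 2.08-fold higher after tetrac. ID2 and ID1, inhibitors of basic helix-loop-helix factors that BMP signals induce, had 352 against 723 and 2128 against 3239. The p against control in the authors' deposited table was 0.01 for BMP4, printed as 0 for ID2 and 0.02 for ID1 after heteronemin, and 0.47, 0.62 and 0.70 after tetrac. ID1, at a log2 ratio of -0.61, was inside 1.5-fold under each of 3 rescalings, at -0.57, -0.52 and -0.48.

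Around these genes the BMP and TGF-beta pathway was uneven. Of 13 ligands, receptors and SMADs of adequate level, BMP4 was past the fold in favour of tetrac and GDF15 in favour of heteronemin. The shares of the 363 genes were 3.31% and 6.06%. The receptor TGFBR2 had -0.47, the BMP mediator SMAD1 -0.40 and the TGF-beta mediator SMAD2 -0.29, whereas SMAD3, SMAD4 and TGFB1 had -0.08, -0.06 and -0.09. The median was -0.09, close to that of the 363 genes. Of 5 target genes, ID2 and ID1 were higher after tetrac, COL1A1 was higher after heteronemin, and CDKN1A, which encodes the cell cycle inhibitor p21, had -0.23.

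JAG1, a transmembrane ligand of Notch, had a mean of 319 after heteronemin, 651 after tetrac, 782 in control and 332 under the combination, 2.04-fold higher after tetrac. The receptor NOTCH1 and the transcription factor RBPJ had log2 ratios of 0.12 and 0.07. CAV1, the coat protein of caveolae, had 514 after heteronemin, 882 after tetrac and 1048 in control. It was at -0.78, and at -0.58 after correction for level. GSN, the actin-severing gelsolin, had 340.5 against 525. All 10 cytoskeletal and motility genes of adequate level had log2 ratios below 0, also with equal panel sums, and the median was -0.29. After the median of genes of like level was taken off, 6 of the 10 were below 0 and the median was -0.05. Of all 363 genes, 224 were below 0, or 154 with equal panel sums and 179 with the level correction. JAG1, CAV1 and GSN had p-values of 0.17, 0.34 and 0.39 for tetrac against control in the authors' deposited table.

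All 8 cell cycle genes of adequate level also had log2 ratios below 0, with equal panel sums and with the level correction too, and the median was -0.32, or -0.20 with the correction. Over all 363 genes, 224 were below 0, or 154 with equal panel sums and 179 with the level correction. RBL1, a relative of the retinoblastoma protein, had a mean of 227 after heteronemin, 376 after tetrac and 399 in control. PTTG1, which encodes securin, had 1203, 1890 and 2026, and RGCC, a regulator of the cell cycle outside the list, had 158.5, 240 and 246. RBL2 was at -0.30, CDKN1A at -0.23 and RB1 at -0.15. After heteronemin 7 of the 8 were below control at an unadjusted p under 0.05 in the authors' deposited table (28.1% of the 363 genes were) and 0 after tetrac (1.93%). Of 7 integrin chains of adequate level, ITGA2, the collagen-binding alpha2 chain, had 237 against 389 and was 1.64-fold higher after tetrac. It was the 1 chain of the 7 past the fold, against 3.31% of the 363 genes higher after tetrac. The list's median was -0.09, close to the -0.08 over the 363 genes. ITGB8 and ITGB4 had -0.55 and -0.46, and ITGB1 had 0.21. ITGB3, a chain of the tetrac receptor, was under the level minimum, at 54.3 after heteronemin, 44.4 after tetrac and 33 in control.

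None of the measured EGF receptor genes or their effectors was 1.5-fold apart between the compounds. Only 7 of 19 listed genes of the receptor family and 14 of 26 listed RAS, ERK, PLC-gamma and STAT effectors were measured. EGFR had a mean of 385.5 after heteronemin, 462 after tetrac, 502 in control and 404 under the combination, a log2 ratio of -0.26. The authors' deposited table gives it p = 0.04 for heteronemin and 0.29 for tetrac against control; the difference between the compounds was not tested. The ligands EREG and AREG had -0.39 and -0.09, and ERBB2 had -0.04. Of 14 RAS, ERK, PLC-gamma and STAT genes, 11 had ratios below 1, or 7 with equal panel sums and 7 with the level correction; the median was -0.15, or -0.03 with the correction. MAPK3, which encodes the kinase ERK1, was lowest, with 340 after heteronemin, 476 after tetrac and 586 in control, a log2 ratio of -0.48. It is the 1 gene of that list below control at an unadjusted p under 0.05 for both compounds in the authors' deposited table, at 0.02 for heteronemin and 0.04 for tetrac. The ETS factor ETV4 had -0.37, PLCG1 -0.30 and STAT3 -0.21.

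Of 12 PI3K, AKT and mTOR genes, 8 had ratios below 1, or 6 with equal panel sums and 8 with the level correction. The median was -0.15, or -0.06 with the correction. Of all 363 genes, 224 had ratios below 1, or 154 with equal panel sums and 179 with the level correction. AKT1 was at -0.36, AKT2 at -0.25, PIK3CA at -0.22 and MTOR at -0.18. Of 15 HIF and glucose genes, NDRG1 and EGLN3 were past the fold higher after heteronemin, at 0.85 and 0.69. Past it higher after tetrac were 0, and the shares of the 363 genes were 6.06% and 3.31%. With the level correction EGLN3 lay at 0.57, inside the fold. Ratios lay below 1 for 10 of the 15, or 7 with equal panel sums and 6 with the level correction. The list's median was -0.11, or 0.04 with the correction. The lactate dehydrogenase LDHA was at -0.44, the glycolytic kinase PGK1 at -0.38 and HIF1A at -0.30, or -0.19, -0.13 and -0.08 with the correction. The Eph receptors EPHA1, EPHA2 and EPHB4 were at -0.18, 0.27 and 0.02. Such sizes sit against a median of -0.23 over the 83 most abundant genes, from a mean level of 800, -0.17 for the 74 genes from 400 to under 800, and 0.07 for the 97 genes from 100 to under 200.

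**Figure D4:**
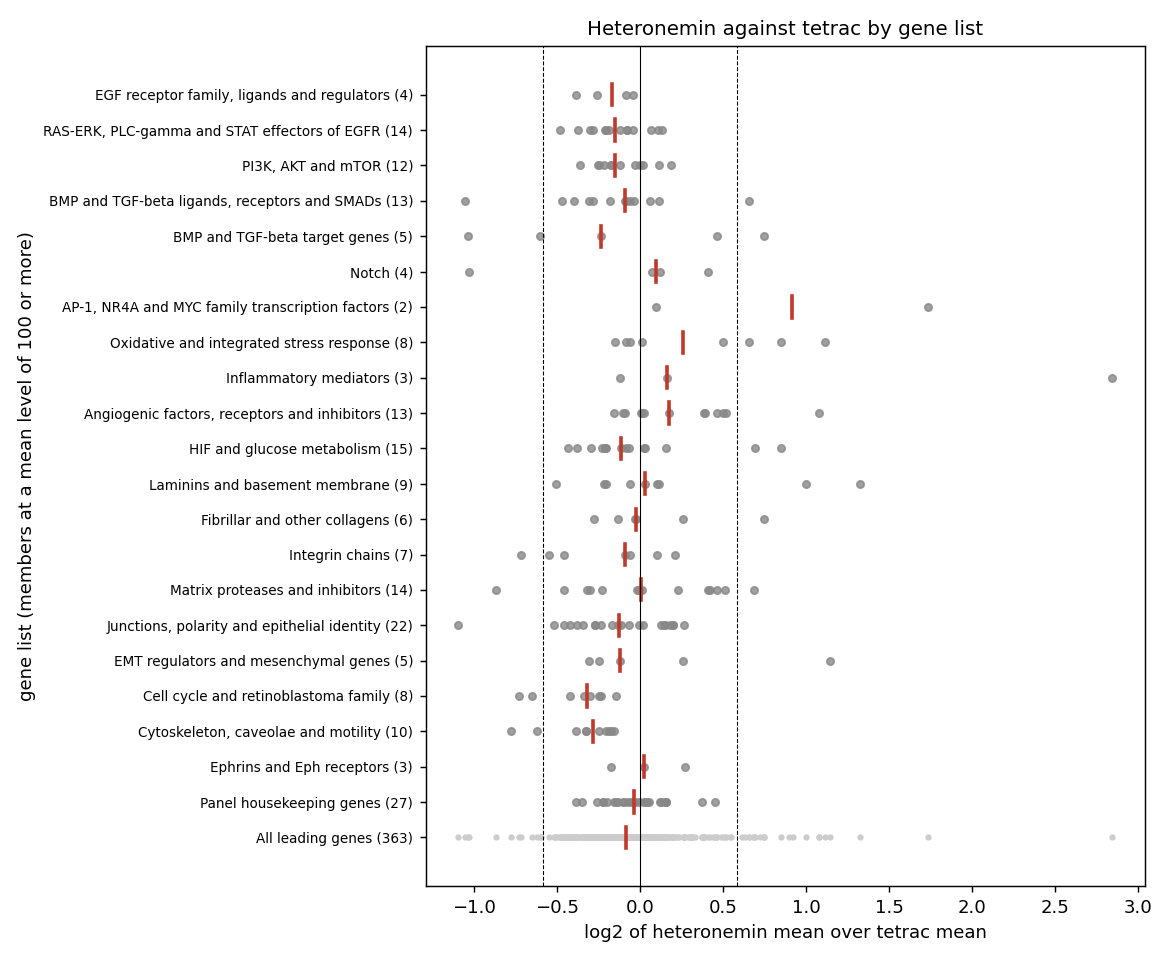
Log2 ratios of the heteronemin mean over the tetrac mean (x axis) for those members of each gene list that reached a mean level of 100 (number in brackets); red ticks are list medians and dashed lines a fold of 1.5. All members of the cell cycle and the cytoskeletal lists lie below 0, with medians of -0.32 and -0.29 against -0.08 over all 363 genes. Of the 10 cytoskeletal genes, 10 stay below 0 with equal panel sums and 6 with the level correction. Of all 363 genes, 224 lie below 0, or 154 with equal panel sums and 179 with the level correction.

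The number of genes past the authors' test against control also differed between the compounds. For heteronemin the authors' deposited table has 35 of the 363 genes (9.64%) higher and 102 (28.1%) lower at an unadjusted p under 0.05. For tetrac the numbers in the authors' deposited table were 1 (0.275%) and 7 (1.93%). Over all genes with a p, 191 of 704 (27.1%) and 9 of 714 (1.26%) passed in either direction in the authors' deposited table of each compound. Both tables rest on the same 3 control samples, and a gene past the threshold after 1 compound and not after the other is not shown to differ between them. A p also depends on the spread among the 3 samples of a group, which is not given and was not tested. The fewer calls after tetrac are thus not shown to mean smaller changes. At the level minimum itself, PDGFA, LOXL2 and EGFL7 lay just inside, at mean levels of 100.4, 101.4 and 101.8, and MMP14, BAD and CSPG4 just outside, at 97.7, 96.6 and 94.3.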

How the data were processed

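RNA of 3 samples per group was counted with the nCounter PanCancer Progression panel. The design text states that the authors used nSolver 4.0 for a technical normalization by positive controls and for a biological one. The authors deposited a normalized signal, 1 mean per group and gene, in 3 tables that share 1 control column. The authors deposited a score, the signed fold change against control, and a p-value, unadjusted and printed to 2 decimals. No source used here gives the kind of mean, the test or the background threshold. The depth is unknown, and the p-values rest on 3 samples per group, whose spread may be only technical.

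The heteronemin and tetrac tables were joined by gene (770 genes, 740 endogenous and 30 housekeeping) and log2 ratios of the means were taken with no pseudocount; 755 symbols were current in RefSeq and 15 were older. Genes named were the 15 largest ratios in each direction among the 363 genes, up to 4 members of each of 20 lists, 5 per direction below that level, and 25 measured genes out of 26 set in advance; genes at the edges of a threshold and further list members were added after their values were seen. Of 541 listed genes, 287 were measured. Correction for level took off the median log2 ratio of the 51 genes closest in level. Members, lists and tests were chosen with earlier results of these data known. Some genes that these rules name are not reported here. The counting was tested on simulated data. Alternatives changed scaling, pseudocount, level minimum and fold. Promoter windows came from RefSeq GRCh38.p14; those of SNAI1, HMOX1, NRP1, CLU, NDRG1, COL1A1, WARS, EPN3 and SCNN1A had no entry in the table. Python 3.11.15, numpy 2.4.6, pandas 2.3.3, scipy 1.17.1 and matplotlib 3.10.9 were used.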

Additional observations from a re-analysis of the deposited data

How the results depend on the processing

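The count of genes 1.5-fold or more higher after heteronemin was 22; it was 108 with a level minimum of 50, 112 with none, 8 with a minimum of 200, and 7 at a fold of 2, and it ranged from 19 to 30 over the 6 settings of scaling, pseudocount, source of the ratio and level correction. The count higher after tetrac was 12; it was 4 at a fold of 2 and 11 with a level minimum of 200, and ranged from 8 to 13 over the other settings. All 34 genes kept their direction in each of those 6 settings. Fewest of the 22 kept the fold with 20 added to both means (19), and fewest of the 12 with the level correction (7), where CAV1, PTTG1, GSN, ID1 and RGCC were inside the fold. Of the authors' unadjusted calls against control, 191 for heteronemin became 41 and 9 for tetrac became 0 when the p-values as printed were adjusted by Benjamini-Hochberg. The 41 are the genes whose heteronemin p is printed as 0. That was read as exactly 0 although it stands for any p below 0.005, so the 41 is set by the rounding. Leaving out samples was not possible because the tables hold group means. No paired analysis was possible because the tables hold 1 mean per group and no values per replicate. The raw depth is unknown, and genes near the floor of 33 are poorly measured.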

Other observations

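Below the level minimum, the largest ratios among genes above the floor after both compounds were those of SPP1, HKDC1, MYCL, RUNX1T1 and ECM1. SPP1, which encodes the secreted phosphoprotein osteopontin, had a mean of 137 after heteronemin, 44.9 after tetrac, 36.4 in control and 137 under the combination. The hexokinase family member HKDC1 had 115, 43.5, 34.4 and 109 in that order, and the MYC family member MYCL had 118, 48.4, 36.5 and 105. RUNX1T1, a transcriptional co-repressor, had 124 after heteronemin, 53.3 after tetrac and 52.2 under the combination, and ECM1, extracellular matrix protein 1, had 90.9, 44.0 and 63.9. After correction for level their log2 ratios were 1.10, 0.76, 0.65, 0.66 and 0.35. In the other direction, PXDN, a matrix peroxidase, had 68.3 after heteronemin and 106 after tetrac, with 111 in control. CRIP2 had 57.2 and 84.7, MMP14, a membrane-anchored matrix protease, had 82.4 and 113, SERPING1, the C1 inhibitor, had 44.0 and 59.5, and ITGA9 had 35.3 and 46.7. Their log2 ratios were -0.64, -0.57, -0.46, -0.44 and -0.41, and after correction for level -1.27, -1.28, -0.88, -0.80 and -0.64. All 5 were then past 1.5-fold, but without the correction only PXDN was. The correction takes off a positive median of other low genes, which was 0.54 at mean levels from 50 to under 75 and 0.59 from 75 to under 100. In these low genes the share of samples above the floor was not tested.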
